A study of Mus musculus with 564 samples.

Results

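The experiment described here is the response of mouse bone marrow-derived macrophages (BMDMs) to interleukin-4 (IL-4) after 2 h, measured as acetylation of histone H3 at lysine 27 (H3K27ac) by ChIP-seq. It rests on 4 of the 564 libraries of the series, namely 2 of cells given IL-4 for 2 h and 2 of untreated cells (UT), and on every one of the 59190 cis-regulatory elements (CREs) that the series measured. Cells of all 4 libraries were wild type, came from male C57/BL6 mice aged 6 to 8 weeks and received the vehicle DMSO for 1 h. IL-4 was then given at 10 ng/ml, whereas UT cells received no cytokine. The sample name of UT reads 0 h while its treatment label reads 4 h, so the time that UT cells spent in culture after DMSO is not certain. The labels do not say whether the replicates of a group came from separate mice or cultures. The p-values below measure the spread between replicates, pooled over all DMSO libraries of a fit and partly over CREs. This spread may be technical. The other DMSO libraries (IL-4 for 30 min, 1 h and 4 h, and lipopolysaccharide (LPS) at 10 ng/ml for 30 min, 1 h, 2 h and 4 h, 2 libraries each) and the libraries of cells given 1 of 56 clinical kinase inhibitors (CKIs) in place of DMSO, both without and with IL-4 for 2 h, serve for comparison.

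IL-4 is the cytokine that drives the alternative activation of macrophages. It binds a receptor whose associated JAK kinases phosphorylate STAT6, and the STAT6 dimer then enters the nucleus and binds DNA at a palindrome in which TTC and GAA are separated by a short spacer. H3K27ac is deposited by the acetyltransferases p300 and CBP at active enhancers and promoters, so that its gain or loss at a CRE reports a change in the activity of that element rather than the amount of a transcript.

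The letters TTCNNNNGAA, in which N is any base, lay in the central 300 bases of 9.68% of the 47018 CREs tested and of 34.4% of those that gained H3K27ac at 2 h. The 60 bases around such a match are shown for 6 CREs that gained the mark strongly and whose genes recur below, and for the promoter of Galnt9, which lost it. The pattern equals its own reverse complement, the sequences are the forward strand of the mm10 (GRCm38) reference, and the capitals mark the 10 matching bases.
Socs1 (CRE in a Clec16a intron), chr16:10700377-10700436: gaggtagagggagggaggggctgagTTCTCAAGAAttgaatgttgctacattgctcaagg
Clec16a (intron), chr16:10683542-10683601: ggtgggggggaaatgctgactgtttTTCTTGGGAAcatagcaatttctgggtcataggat
Spry1 (CRE in a Spata5 intron), chr3:37536009-37536068: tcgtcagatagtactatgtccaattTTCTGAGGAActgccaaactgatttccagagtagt
Tcf7l2 (CRE in a Vti1a intron), chr19:55577647-55577706: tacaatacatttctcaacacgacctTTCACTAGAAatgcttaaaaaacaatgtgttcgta
Pdcd1lg2 (promoter), chr19:29410812-29410871: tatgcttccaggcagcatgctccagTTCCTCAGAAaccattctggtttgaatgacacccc
Crebbp (intergenic), chr16:4276243-4276302: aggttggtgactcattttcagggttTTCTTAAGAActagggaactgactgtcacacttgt
Galnt9 (promoter, lost H3K27ac), chr5:110603356-110603415: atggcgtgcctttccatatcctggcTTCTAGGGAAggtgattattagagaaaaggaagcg
In the Socs1 CRE the match lay 7 bases from the middle of the element, in Pdcd1lg2 14, in Crebbp 20 and in Galnt9 60. A match is a stretch of letters and was not tested for binding.

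Each value is the authors' normalized read count of 1 CRE in 1 library. The spacing of the values put the reads inside CREs at an estimated 6269544 and 5789936 in the UT libraries and 4962913 and 5026457 in the IL-4 2 h libraries, and the replicates of each group correlated at 0.982 and 0.977 over CREs on the log2(value + 5) scale. Of 8 macrophage marker genes, 5 had a promoter CRE, and their summed values were 4215 and 4249 in UT and 3814 and 3703 after IL-4. Among them Spi1, the gene of the macrophage factor PU.1, had values of 2046 and 2118 in UT and of 2287 and 2253 after IL-4, whereas the integrin gene Itgam went from 666 and 606 to 349 and 357 and the lysozyme gene Lyz2 from 653 and 641 to 349 and 310. None of the 5 passed the threshold given below. Markers of T, B and NK cells, neutrophils, dendritic cells and fibroblasts summed to at most 131 in any of the 4 libraries, and those of mast cells, eosinophils, erythroid and epithelial cells had no promoter CRE. The B cell marker Ms4a1 was itself called lower, with 87 and 53 in UT and 19 and 31 after IL-4. The 2 endothelial markers with a promoter CRE summed to 352 and 369 in UT and 225 and 219 after IL-4. How far other cells contribute to any result was not tested, and in bulk chromatin a change in a few cells and a smaller change in all cells cannot be told apart.

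Was H3K27ac changed after 2 h of IL-4, and where? Of the 47018 CREs tested, 8160 (17.4%) passed the threshold, which was a Benjamini-Hochberg adjusted p under 0.01 in limma and a difference of more than 1 on the log2(value + 5) scale. H3K27ac was higher at 4087 CREs (8.69%) and lower at 4073 (8.66%), and the median difference over all tested CREs was -0.03. The near equality of the numbers in the 2 directions for IL-4 2 h against UT depended on the settings, since a pseudocount of 20 gave 2816 higher and 2109 lower, and leaving out UT replicate 1 gave 4052 and 2945. Among the CREs that rose, 1353 exceeded a log2 difference of 2 and 370 exceeded 3, whereas among those that fell 204 exceeded 2 and 2 exceeded 3. A further 7565 CREs passed the adjusted p alone with a smaller difference. The 12172 CREs whose mean was under 10 in the DMSO UT and IL-4 libraries were not tested, and none of these had a mean above 26.5 after IL-4.

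**Figure D1:**
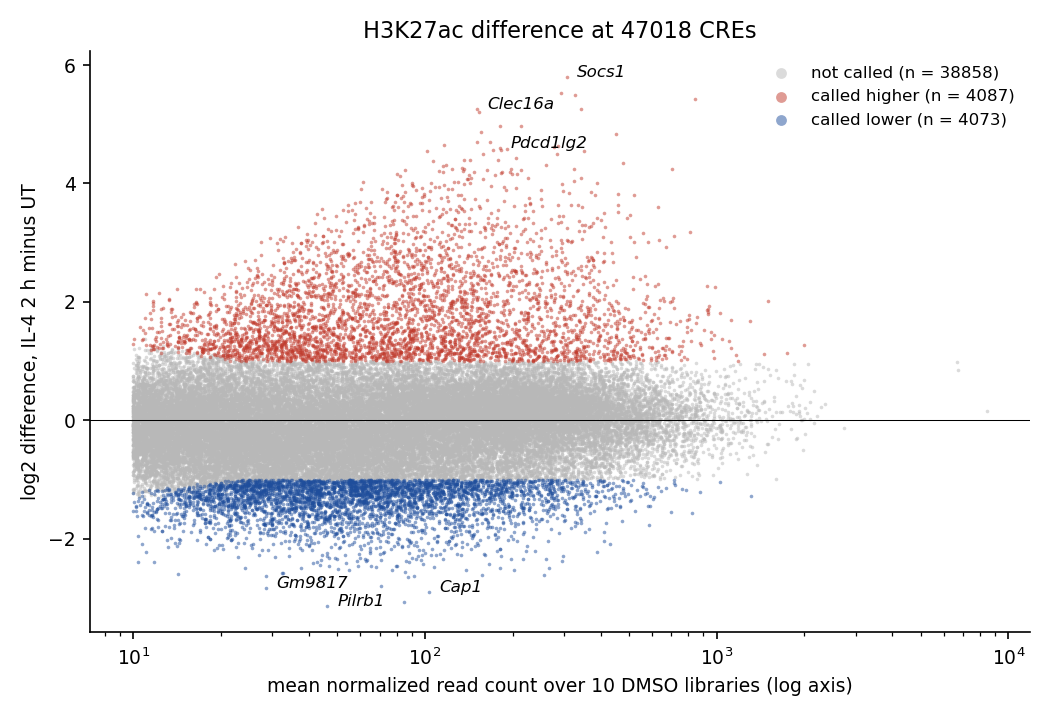
Log2 difference of H3K27ac between IL-4 2 h and UT (vertical axis) against the mean normalized read count of the CRE over 10 DMSO libraries (horizontal log axis), 1 point per CRE tested. The CREs called higher (4087) reach further from 0 than those called lower (4073), which end near a log2 difference of -3.

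The CREs that rose started low. Their median value was 22.0 in UT and 103.5 after IL-4, and 994 of them (24.3%) had a UT mean under 10, compared with 6.07% of all tested CREs. The CREs that fell had a median of 94.0 in UT and 33.0 after IL-4, and 403 of them (9.89%) had a mean under 10 after IL-4. Thus many gains took place at elements with little H3K27ac beforehand, while most losses left part of the mark in place. These medians describe sets that were chosen by the same difference. The standard error of the difference depended on the level, with a median of 0.37 in CREs with a mean value of 10.0 to 21.5 and of 0.12 in those above 204, so a change of a given size was harder to call at weak CREs.

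Promoters changed less often than distal CREs. A promoter CRE, whose midpoint lay within 1 kb of the start of an annotated transcript, rose in 386 of 10850 cases (3.56%) and fell in 153 (1.41%). Of the 36168 CREs further away, 3701 rose (10.2%) and 3920 fell (10.8%). At more than 50 kb from any start these shares were 13.1% and 14.6% of 8773 CREs. Promoter CREs also had a positive median difference (0.20), against -0.16 at distal CREs, and a narrower spread (SD over CREs 0.49 against 0.92). Each CRE was named after the gene with the nearest start, which need not be the gene that it controls. By this naming 2081 genes had at least 1 CRE that rose, 2051 had 1 that fell and 320 had both.

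Socs1, which encodes an inhibitor of JAK kinases and so a brake on IL-4 signaling, held the largest gain. The CRE at chr16:10699537-10701291 in an intron of the neighboring gene Clec16a, 85122 bp from the Socs1 start, had values of 5 and 2 in UT and of 469 and 450 after IL-4. Both IL-4 libraries lay far above both UT libraries, and the log2 difference was 5.79 ± 0.16 (standard error; limma, Benjamini-Hochberg adjusted p = 2.0e-32). A second Clec16a intron CRE, chr16:10682663-10684381, went from 2 and 1 to 230 and 259. All 11 Socs1 CREs within 100 kb of its start rose, and its promoter CRE, which already carried the mark, had 251 and 274 in UT and 1348 and 1191 after IL-4 (log2 difference 2.25 ± 0.08). No value of the UT libraries came near the IL-4 libraries at any of these 3 elements.

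Several of the other large gains lay in a cluster of ribonuclease genes on chromosome 14. The CRE nearest to Ang5, a member of the angiogenin family of secreted ribonucleases, had values of 5 and 7 in UT and 483 and 491 after IL-4. The CRE nearest to Rnase2b, of the same ribonuclease superfamily, had 3 and 4 and then 254 and 270. The promoter of Ang2 had 21 and 18 and then 666 and 717, a log2 difference of 4.83 ± 0.12. The predicted gene Gm8113 in the same region gained 5.52 ± 0.17. Copies of these genes resemble each other: of the 51-base stretches in the Ang5, Rnase2b and Gm8113 CREs, 16.3%, 31.6% and 43.7% occurred elsewhere in the mm10 chromosomes, so reads may have been shared between copies.

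The remaining large gains were spread over the genome. Spry1, which encodes an inhibitor of receptor tyrosine kinase signaling, had a CRE in an intron of Spata5 with 1 and 3 in UT and 241 and 263 after IL-4. The CRE nearest to Slc1a2, a glutamate transporter gene, had 6 and 4 and then 296 and 322, and an exonic CRE of Il31ra, a cytokine receptor subunit gene, had 4 and 6 and then 226 and 288. UT values were at or below 13 in both libraries for 11 of the 12 largest gains, the Ang2 promoter being the exception. St8sia1, which encodes the ganglioside GD3 synthase, gained the mark in an intron (9 and 13, then 399 and 380). Tcf7l2, a transcription factor of the Wnt pathway, was nearest to a CRE in an intron of Vti1a with 7 and 12 in UT and 315 and 377 after IL-4. The CRE nearest to Tnk2, a cytoplasmic tyrosine kinase gene, went from 2 and 2 to 158 and 183.

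**Figure D2:**
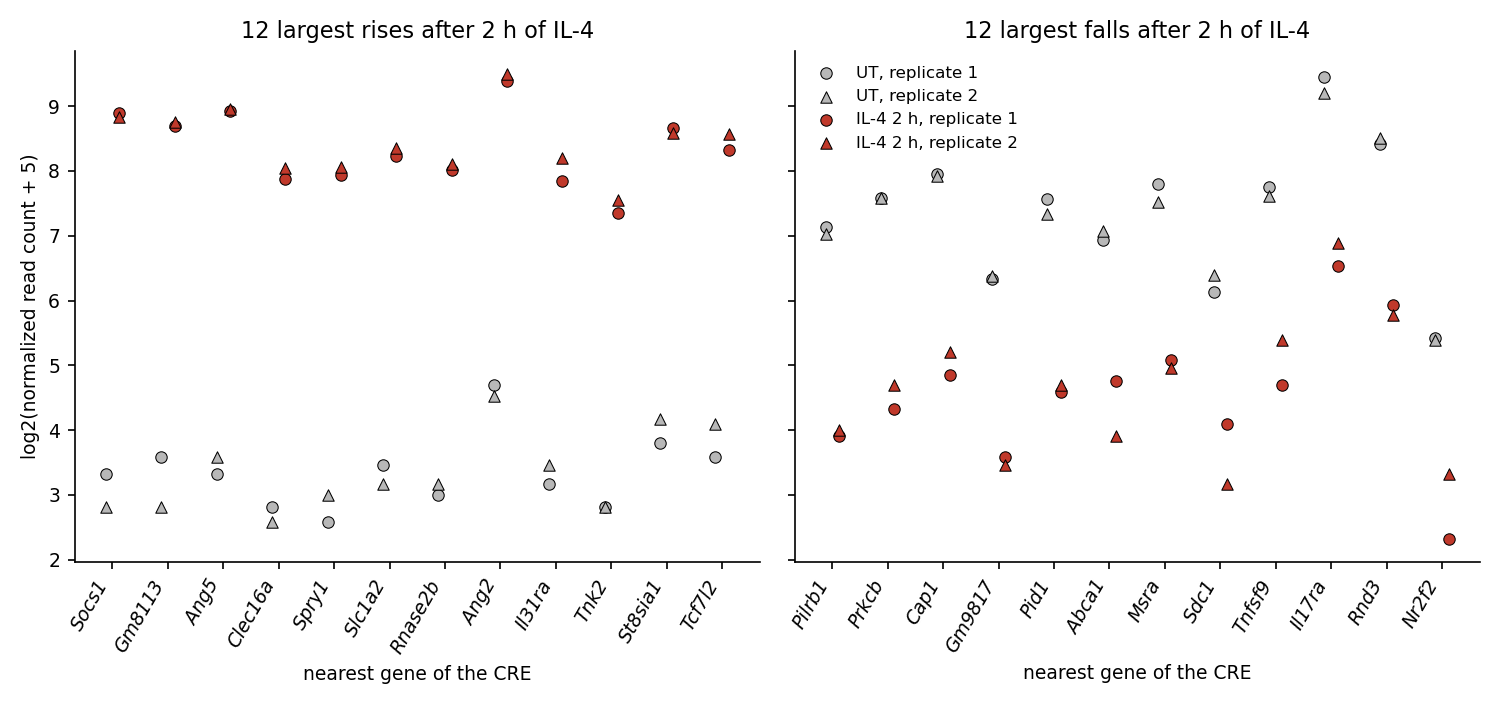
Log2(normalized read count + 5) in each UT and IL-4 2 h library (colors by group, symbols by replicate) at the 12 CREs with the largest rise and the 12 with the largest fall, named by nearest gene. At every CRE both IL-4 libraries lie on the same side of both UT libraries, which the choice of these CREs required.

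At promoters, the strongest gains after Ang2 were at genes with diverse roles. Pdcd1lg2 encodes PD-L2, a ligand of the inhibitory receptor PD-1 and a marker of alternatively activated macrophages. Its promoter CRE had values of 6 and 8 in UT and of 276 and 293 after IL-4 (log2 difference 4.60 ± 0.17, limma, Benjamini-Hochberg adjusted p = 2.9e-27). Gata3, the master transcription factor of type 2 helper T cells, had 5 and 4 at its promoter in UT and 167 and 176 after IL-4. Rasgrp1, an activator of Ras, had 12 and 11 and then 291 and 292. Syce1l, a gene of the synaptonemal complex family, and Scn3a, a sodium channel gene, rose by 4.19 ± 0.21 and 3.73 ± 0.20. Wdr86 (11 and 12, then 262 and 176) and the anion transporter gene Slc26a8 (5 and 5, then 116 and 108) completed the 8 largest promoter gains. The IL-4 replicates of Wdr86 were far apart in value, yet the lower of them was still many times the UT values.

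The largest loss lay near Pilrb1. This gene, an activating member of the paired immunoglobulin-like receptors, had values of 136 and 126 at a CRE 5512 bp upstream in UT and of 10 and 11 after IL-4, a log2 difference of -3.13 ± 0.29 (limma, Benjamini-Hochberg adjusted p = 8.1e-13). Its promoter (329 and 264, then 61 and 70) and that of Pilrb2 (346 and 320, then 61 and 81) fell as well. In the 3 CREs IL-4 values lay below both UT values, but 52.3% of the 51-base stretches of the upstream Pilrb1 element, 34.6% of those of its promoter and 31.7% of those of the Pilrb2 promoter recur elsewhere in the genome, so reads may have been shared between paralogs. Il17ra, the receptor subunit for interleukin-17, lost the mark in an intron (695 and 586, then 88 and 114). Tnfsf9, the ligand of the costimulatory receptor 4-1BB, had 210 and 190 in UT and 21 and 37 after IL-4 at a CRE 7043 bp away. This element was not low in LPS-treated cells, where the values were 449 and 480 at 2 h.

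Other large losses lay near genes of varied function. An intronic CRE of Prkcb, encoding protein kinase C beta, had 186 and 187 in UT and 15 and 21 after IL-4, a log2 difference of -3.07 ± 0.24. An upstream CRE of Abca1, the cholesterol exporter, had 117 and 129 and then 22 and 10. The CRE nearest to Cap1, an actin-binding protein gene, had 242 and 237 and then 24 and 32. Unlike the gains, which began near 0, these falls began at moderate values and ended low. This contrast follows in part from ranking the CREs by the size of the difference. The elements nearest to Pid1 (184 and 156, then 19 and 21), to the oxidized methionine repair gene Msra (218 and 179, then 29 and 26) and to Rnd3 (337 and 361, then 56 and 50) fell by 2.80, 2.64 and 2.61. Sdc1, a cell surface proteoglycan gene, Gm9817, and Nr2f2, a nuclear receptor gene, made up the rest of the 12 largest falls. The Nr2f2 element was the weakest of these, with 38 and 37 in UT and 0 and 5 after IL-4.

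The promoters that lost most H3K27ac after IL-4 were those of Ifitm6, of the interferon-induced transmembrane family (596 and 564, then 95 and 121), and of Clec4d, a C-type lectin receptor for mycobacterial glycolipid (729 and 745, then 155 and 154). Their log2 differences were -2.38 ± 0.13 and -2.22 ± 0.12. Foxp1, a forkhead transcription factor gene, had 840 and 949 in UT and 208 and 218 after IL-4. The Galnt9, Sorbs3 and Gpr31b promoters fell by 2.14, 2.05 and 1.92, the last in an element of which 81.3% of the 51-base stretches are repeated. None of the 12 largest gains and losses or the 8 largest promoter gains and losses failed the threshold under any processing alternative.

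How were the genes of the IL-4 pathway affected? The 16 genes of the receptor and its signaling had 93 tested CREs within 100 kb. Of these 12 (12.9%) rose and 5 (5.38%) fell, against 8.18% and 8.04% of all CREs at that distance. The median difference was 0.03. The gains were at 3 genes. Jak2, encoding a JAK kinase, rose at 5 of 8 CREs, and the strongest had 45 and 47 in UT and 310 and 325 after IL-4. Irs2, the adaptor that links the receptor to PI3 kinase, rose at 5 of 17 CREs, with up to 2.93 ± 0.20 on the log2 scale. Pik3cd, the PI3 kinase catalytic subunit of leukocytes, rose at 2 of 8. A CRE within 1 kb of an annotated start, chr4:149661736-149663153, had 11 and 12 in UT and 152 and 131 after IL-4, whereas a stronger promoter CRE, chr4:149700808-149703774, had 653 and 640 and then 714 and 826 and did not pass (log2 difference 0.25 ± 0.09). No CRE of Il4ra, Il2rg, Jak1, Jak3 or Tyk2, the receptor subunits and the other JAK genes, passed the threshold. Of the 3 CREs nearest to Stat6, 1 lost the mark, an intergenic element with 359 and 323 in UT and 67 and 109 after IL-4 (log2 difference -1.93 ± 0.17). The Stat6 promoter CRE did not pass (log2 difference -0.23 ± 0.09). Il13ra1, the alternative receptor subunit, fell at 2 of 3 CREs.

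The 17 feedback regulators changed in both directions. Among their 146 CREs, 39 (26.7%) rose and 23 (15.8%) fell, with a median of -0.16. Of all CREs within 100 kb 8.18% rose and 8.04% fell. Besides Socs1, all 4 CREs of Cish, another STAT-induced SOCS family gene, rose, the strongest from 27 and 21 to 499 and 439 (log2 difference 4.04 ± 0.14). The Socs2 promoter had 37 and 31 in UT and 304 and 304 after IL-4, and Socs5 rose at 7 of 9 CREs. Socs3 went the other way, with no CRE that rose and 4 of 9 that fell. The strongest Socs3 loss, from 36 and 38 to 11 and 13, no longer passed when any of 3 libraries was left out. Dual specificity phosphatases, which inactivate MAP kinases, were divided likewise. Dusp4 rose at 8 of 10 CREs, the strongest from 50 and 45 to 583 and 605, while Dusp1 fell at 5 of 8, the strongest from 558 and 590 to 162 and 156. Dusp6 fell at 3 of 13 and rose at none.

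Transcription factors linked to alternative activation gained more often than they lost. Of 203 CREs over 18 genes, 39 (19.2%) rose and 14 (6.90%) fell, against 8.18% and 8.04% of all CREs within 100 kb. The median was 0.06. Irf4 rose at 4 of 12 CREs, the strongest 34398 bp away with 41 and 49 in UT and 464 and 483 after IL-4. Egr2, a zinc finger factor, had 211 and 219 at its promoter in UT and 726 and 678 after IL-4. Its paralog Egr3 had no CRE that rose and 5 of 9 that fell. Batf3, a bZIP factor, rose at 7 of 8 CREs, and its promoter went from 67 and 87 to 298 and 265. Klf4 gained 4.25 ± 0.16 at a CRE 35026 bp from its start (9 and 9, then 264 and 259), Tfec rose at 6 of 11 CREs and Nfil3 at 4 of 7. Pparg, the lipid-sensing nuclear receptor, fell at 5 of 14 CREs and rose at none.

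The 40 effector genes of alternative activation showed the highest share of gains among the lists. This ranking is a description, since the lists and members were chosen with earlier results of these data known. Of 188 tested CREs, 62 (33.0%) rose and 18 (9.57%) fell, against 8.18% and 8.04% of all CREs within 100 kb. The share that fell was thus close to that of all CREs. The median difference was 0.46. Arg1, which encodes the arginine-degrading enzyme arginase 1, rose at all 6 CREs and its promoter had 123 and 141 in UT and 671 and 747 after IL-4 (log2 difference 2.38 ± 0.10). Pdcd1lg2 rose at 7 of 7, the lectin gene Mgl2 at 3 of 3, the arginine transporter gene Slc7a2 at 3 of 3 and the VEGF receptor gene Flt1 at 11 of 12. The Flt1 promoter had 37 and 25 in UT and 419 and 325 after IL-4. At Retnla, encoding the secreted RELM alpha, the 1 tested CRE had 189 and 154 and then 469 and 467, a smaller difference of 1.43 ± 0.11 from a higher start. The chitinase-like gene Chil4 had 4 and 6 and then 108 and 99. Of the 40 genes, 6 had no tested CRE within 100 kb, Chil3 and Clec7a among them. Not all members gained: Msr1, Stab1, F13a1 and Tgm2, a scavenger receptor pair, a coagulation factor subunit and a transglutaminase, had 4, 3, 4 and 3 CREs that fell and none that rose.

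**Figure D3:**
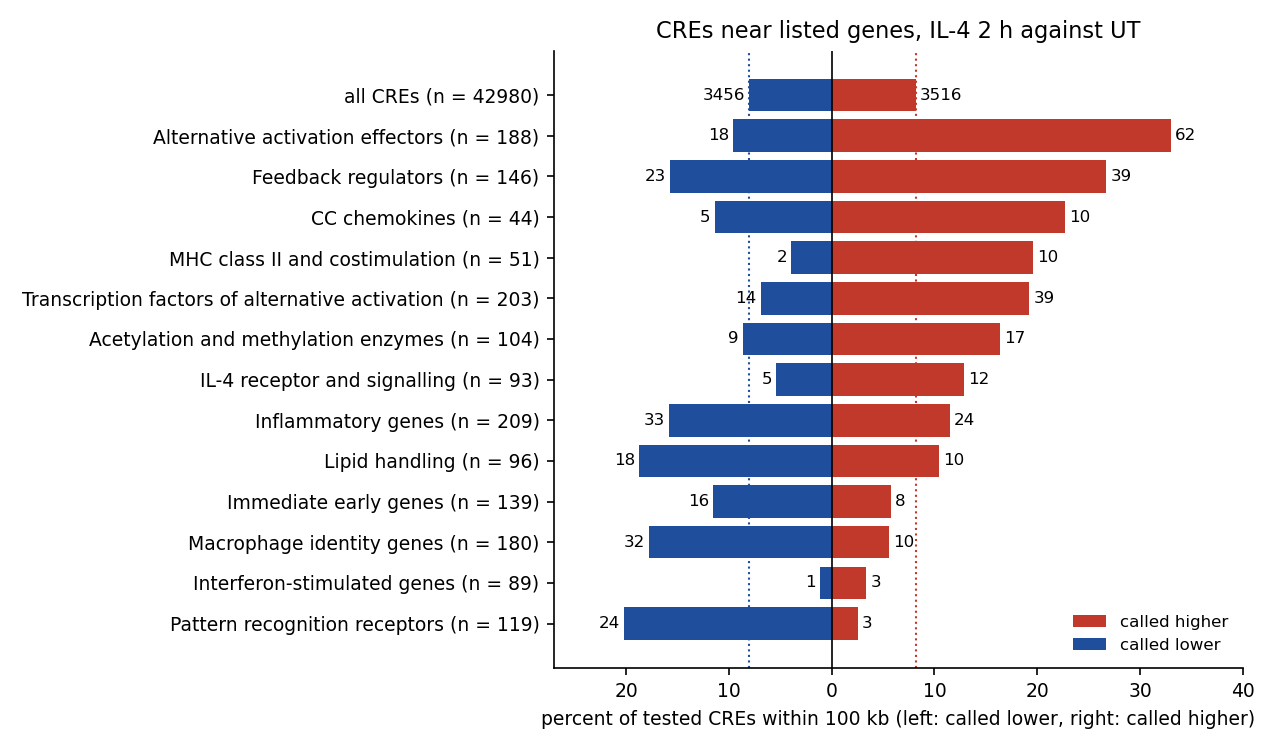
Percent of the tested CREs within 100 kb of the genes of each list that were called higher (right) or lower (left) at IL-4 2 h, with the number of CREs in brackets and all CREs for reference. Effectors of alternative activation reach 33.0% higher, and pattern recognition receptors 20.2% lower. Lipid handling genes reach 18.8% lower and macrophage identity genes 17.8%. The lists were chosen with earlier results of these data known.

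Chemokine and lipid genes were mixed. Of 44 CREs of CC chemokine genes, 10 (22.7%) rose and 5 (11.4%) fell, against 8.18% and 8.04% of all CREs within 100 kb. Ccl24, an eosinophil attractant, rose at 4 of 4 with a promoter difference of 1.69 ± 0.16 (62 and 51, then 194 and 191), Ccl8 rose at 2 of 2 and Ccl6 fell at 4 of 8. Of 96 CREs of lipid handling genes, 10 (10.4%) rose and 18 (18.8%) fell. The gains were close to the share of all CREs, and 12 of the falls were at Abca1. Its promoter had 305 and 358 in UT and 106 and 85 after IL-4. Abcg1, the other cholesterol exporter gene, had no CRE that fell and 3 of 7 that rose, the strongest from 38 and 20 to 280 and 324. Plin2, encoding a lipid droplet coat protein, fell at 4 of 9.

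Genes of pathogen sensing lost the mark more often than they gained it, as did the macrophage identity genes described below. Pattern recognition receptors had 119 CREs, of which 24 (20.2%) fell and 3 rose, with a median of -0.54. Within 20 kb of the starts, 16 of 86 (18.6%) fell and none rose, against 6.14% and 6.83% of all CREs at that distance. Clec4n, the dectin-2 gene, fell at 4 of 4 CREs, Tlr2 at 4 of 16, Tlr5 at 4 of 11 and Nod2 at 3 of 6. All 3 gains belonged to Tlr4, the LPS receptor, where an intronic CRE 27137 bp from the start had 36 and 16 in UT and 167 and 185 after IL-4. Of 209 CREs of inflammatory genes, 24 (11.5%) rose and 33 (15.8%) fell, against 8.18% and 8.04% of all CREs within 100 kb. Nfkbiz, a nuclear IkB protein gene, fell at 12 of 17 CREs, the strongest from 212 and 235 to 35 and 40, an element that stood at 601 and 613 after 2 h of LPS. Clec4d fell at 4 of 4 and Cxcl2, a neutrophil chemokine gene, at 2 of 2 (97 and 88, then 30 and 13 at the stronger). Nfkb1 rose at 6 of 26 and Il6 at 3 of 7.

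The remaining lists ranged from few calls to many, where of all CREs within 100 kb 8.18% rose and 8.04% fell. Interferon-stimulated genes had 3 CREs up (3.37%) and 1 down (1.12%) of 89, with a median of 0.16. Immediate early genes had 8 up (5.76%) and 16 down (11.5%) of 139, with a median of -0.40. The 25 macrophage identity genes had 10 CREs up (5.56%) and 32 down (17.8%) of 180. Within 20 kb of their starts 3 of 108 (2.78%) rose and 24 (22.2%) fell. Spi1 had no CRE past the threshold, whereas the fractalkine receptor gene Cx3cr1 fell at 6 of 6 (promoter 288 and 296, then 111 and 132) and Mpeg1, encoding the pore-forming perforin-2, at 7 of 9. In the genes for MHC class II and costimulation 10 CREs (19.6%) rose and 2 (3.92%) fell of 51. Cd40, a costimulatory receptor, accounted for 4 of the gains, with 98 and 80 at its promoter in UT and 393 and 386 after IL-4, and Ciita, the class II transactivator, had an intronic CRE with 7 and 7 and then 56 and 62. Among 104 CREs of histone acetylation and methylation enzymes, 17 (16.3%) rose and 9 (8.65%) fell, the latter close to the share of all CREs. Crebbp, the gene of the acetyltransferase CBP, rose at 4 of 6, the strongest from 25 and 18 to 223 and 268, and the deacetylase gene Hdac9 rose at 9 of 22.

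Changes were often numerous at a single gene. Of the 30 CREs nearest to Ado, encoding a thiol dioxygenase, 28 rose, and 22 of 23 nearest to Pan3, of a deadenylase complex, did so. Gsdmc had 21 of 24 and St7 18 of 19 that rose. Nrp1, the neuropilin-1 gene, led the losses with 19 of 36, followed by Pid1 (18 of 31), Gm5426 (17 of 27) and Nfkbiz (15 of 27). Fat3 (14 of 16) and Abca1 (14 of 17) lost the mark at most of their elements. The genes with the highest counts are also among those with many CREs, and CREs that adjoin each other are not independent.

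How did 2 h stand among the other times? The comparisons of 30 min, 1 h and 4 h with UT use the same UT libraries as that of 2 h, and their results are therefore given side by side. At 30 min 5124 CREs (10.9%) were higher and 920 (1.96%) lower than in UT. At 1 h the numbers were 4447 (9.46%) and 2165 (4.6%), at 2 h 4087 and 4073, and at 4 h 4047 (8.61%) and 2997 (6.37%). In both directions together 12.9%, 14.1%, 17.4% and 15.0% of the CREs tested were called. In the CREs called higher at 2 h the median value was 22.0 in UT, 85.5 at 30 min, 97.0 at 1 h, 103.5 at 2 h and 96.0 at 4 h. In those called lower it was 94.0, 66.5, 46.0, 33.0 and 42.5. The gains were thus largely present at 30 min, while the losses deepened until 2 h. The 2 h values were the ones used to choose these sets.

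**Figure D4:**
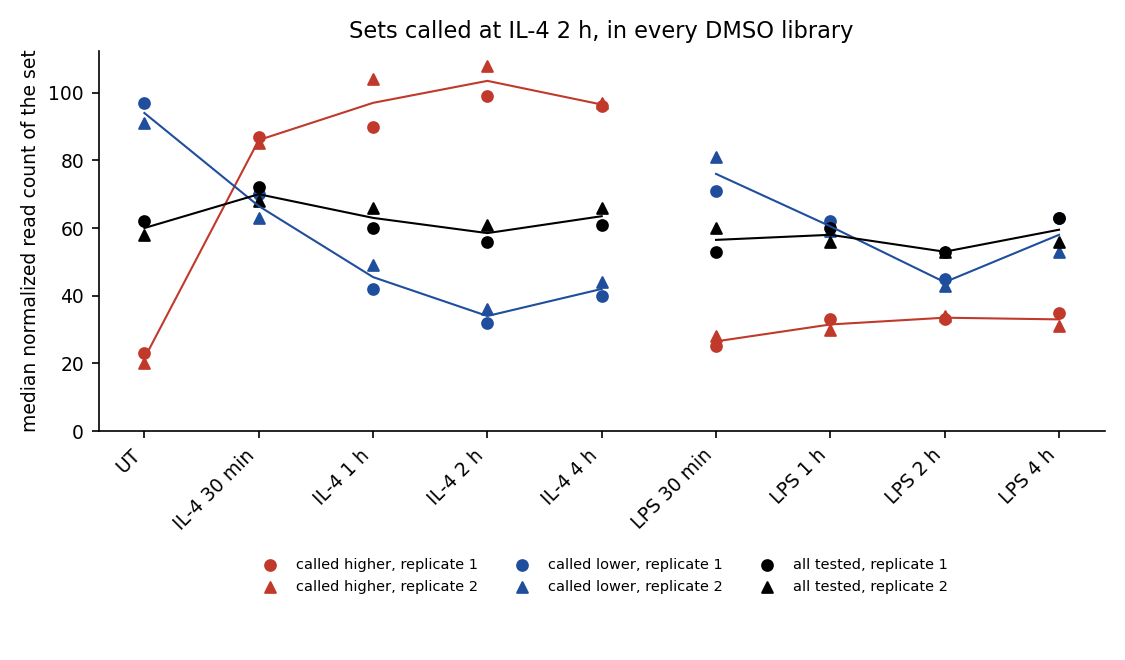
Median normalized read count (vertical axis) of the CREs called higher and called lower at IL-4 2 h, in each DMSO library by stimulus and time, with symbols for the replicates. In the CREs called higher the IL-4 libraries lie between 85.0 and 108 and the UT libraries at or below 23.0, while in those called lower the IL-4 2 h libraries have 32.0 and 36.0.

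Directly compared, few CREs passed the threshold between 2 h and 1 h, although 1482 of 47018 had a Benjamini-Hochberg adjusted p under 0.05 in limma. Of the 47018 CREs 139 (0.296%) passed, 5 (0.0106%) higher and 134 (0.285%) lower at 2 h. Among the 5 with the largest decrease, the Prkcb CRE had 72 and 71 at 1 h and 15 and 21 at 2 h (log2 difference -1.75), and the Fcgr3, Popdc2, Snx13 and Cep78 elements fell by 2.27, 1.70, 1.64 and 1.62. The decreases at Fcgr3, Popdc2 and Snx13 did not pass without each of several single libraries, and 76.0% of the 51-base stretches of the Fcgr3 element are repeated. Of the 5 increases, Tbc1d4, Gpr12, Mib1 and Samd3 each lost the call when single libraries were left out, and 98.4% of the 51-base stretches of the Tcte3 element are repeated elsewhere. This count rested on single libraries: 59 CREs passed without IL-4 2 h replicate 1 and 39 without IL-4 1 h replicate 2.

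From 2 h to 4 h, 450 CREs (0.957%) passed, 250 (0.532%) higher and 200 (0.425%) lower at 4 h. This balance depended on the scaling, since quantile normalization gave 141 higher and 295 lower and rescaling by the median gave 182 and 283. Sardh, a mitochondrial dehydrogenase gene, had 16 and 23 at 2 h and 83 and 75 at 4 h at its nearest element, a difference of 1.79. Agr3 had 56 and 47 and then 2 and 12, and Rasa2, a Ras inhibitor gene, 111 and 120 and then 19 and 32, differences of -2.37 and -2.01. Mpp6, Prex1 and Nr4a3 were also higher at 4 h, by 1.81, 1.71 and 1.69, and each of these calls was lost when single libraries were left out. Of the elements with large changes between these times, those of Gm21739, Gm13275, Gm14418 and Alg13 consisted mostly of repeated sequence (85.3%, 95.2%, 72.1% and 91.9% of 51-base stretches). Without IL-4 4 h replicate 1, 269 CREs passed. Several of the CREs that had fallen most at 2 h had higher values at 4 h. The Pid1 element went from 19 and 21 to 67 and 57, and the Msra element from 29 and 26 to 62 and 66. These CREs were chosen for their fall at 2 h, so part of the rise may come from that choice.

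IL-4 and LPS, a bacterial product that drives inflammatory activation, gave different patterns at 2 h. A fit over the 18 DMSO libraries, with 50587 CREs tested, called 20917 (41.3%), of which 9903 (19.6%) were higher with IL-4 and 11014 (21.8%) higher with LPS. The CREs called higher with IL-4 against UT had a median of 33.5 after 2 h of LPS, compared with 22.0 in UT. Those called lower had 44.0, compared with 94.0 in UT and 33.0 after IL-4. By this median, the set that fell with IL-4 was thus lower than UT with LPS as well, although UT values had helped to choose it. The largest excess with IL-4 was near Ang6, another angiogenin family gene (889 and 832, against 2 and 14 with LPS), followed by elements of Ang5 and Gm8113, and an element of Tcf7l2 was among the 5 largest. The Ang6 element and the Ang5 element of this comparison consist largely of sequence found elsewhere (68.6% and 70.3% of 51-base stretches). The largest excess with LPS was at the CRE nearest to Acaa2, a mitochondrial thiolase gene (583 and 472, against 1 and 0 with IL-4). An upstream element of Jak2 had 542 and 550 with LPS and 1 and 5 with IL-4. Yet the Jak2 element that rose most with IL-4 had 351 and 343 with LPS, and the Socs1 promoter had 1501 and 1418.

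Clec4d and Pilrb1 promoters, which IL-4 lowered, had 798 and 798 and 292 and 378 after LPS. The Foxp1 promoter, with 840 and 949 in UT, was at 208 and 218 with IL-4 and at 33 and 34 with LPS. Arg1, Mgl2 and Irf4 behaved in the opposite way, since the Arg1 promoter had 71 and 65 after LPS, the Mgl2 promoter 16 and 15, and the Irf4 element 20 and 14. The Syce1l promoter rose from 7 and 3 to 142 and 212 with IL-4 and stood at 108 and 91 with LPS.

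Which sequences did the CREs share? In the central 300 bases, TTCNNNNGAA was found in 34.4% of the CREs that rose, in 4.49% of those that fell and in 9.68% of all tested. Its share grew with the size of the gain, from 26.8% at log2 differences of 1 to 2, through 45.9% at 2 to 3, to 59.2% above 3. Away from promoters the shares were 36.2% of the CREs that rose, 4.44% of those that fell and 10.96% of all tested, and at promoters they were 16.6%, 5.88% and 5.41%. Read the other way, of the 4551 CREs with a match 30.9% rose and 4.02% fell, whereas of the 42467 without a match 6.32% rose and 9.16% fell. Of the 12 largest gains, 9 had a match in the central 300 bases and all 12 had one within the CRE, while of the 12 largest losses 0 and 4 did. Sequences 1 base shorter in the spacer, TTCNNNGAA, which other STAT proteins favor, were found in 17.1% of the CREs that rose, 7.68% of those that fell and 9.59% of all.

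The motifs of AP-1, PU.1 and C/EBP differed less between the sets. The AP-1 letters TGANTCA occurred in 22.0% of the CREs that rose, 26.5% of those that fell and 19.1% of all. The PU.1 letters GAGGAAGT, searched on both strands, were found in 9.40%, 12.3% and 9.20%, and the C/EBP letters TTGCNNAA, also on both strands, in 15.4%, 19.4% and 14.5%. These 3 belong to factors that maintain macrophage enhancers. The median GC content of the central 300 bases was 45.7% in the CREs that rose, 46.3% in those that fell and 48.7% in all tested. Away from promoters the CREs that rose were close to all tested, with AP-1 in 23.4% and 23.0%, PU.1 in 10.0% and 10.9% and C/EBP in 16.0% and 16.3%, while those that fell had 26.8%, 12.5% and 19.6%. No allowance was made for base composition.

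**Figure D5:**
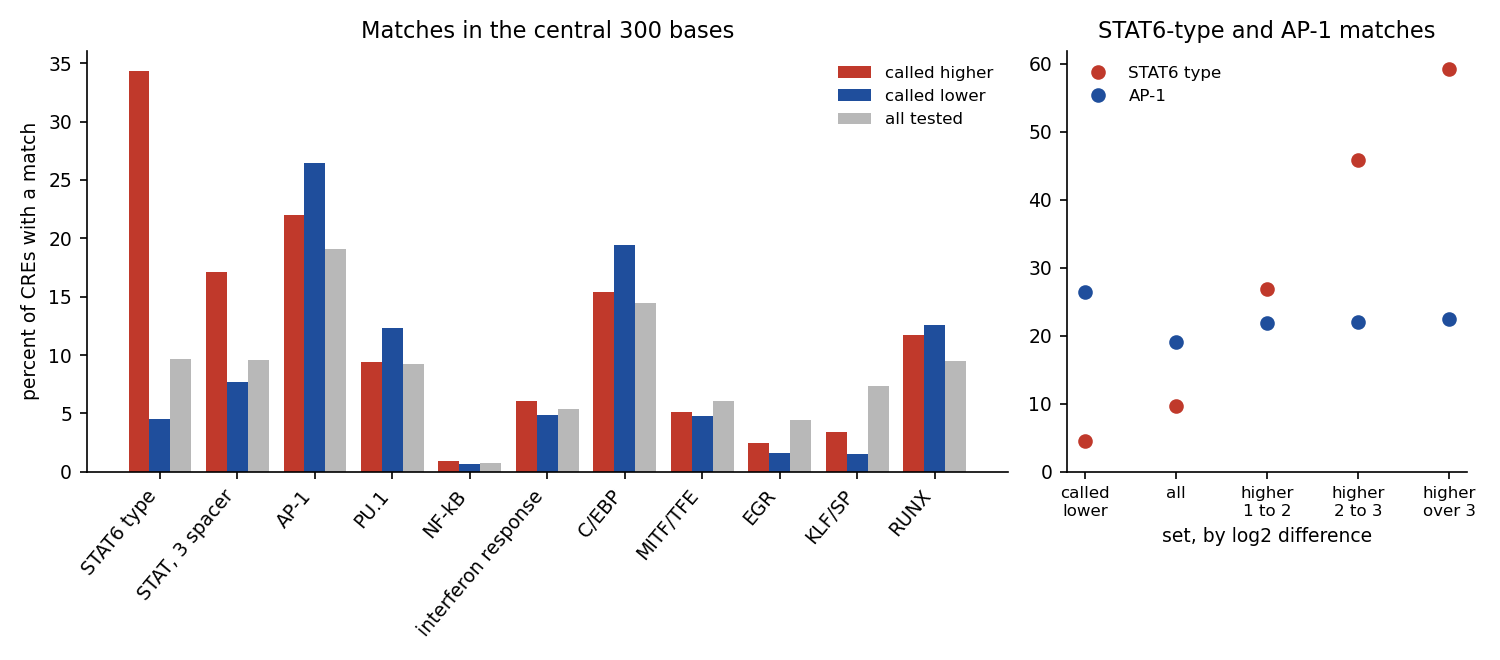
Left, percent of CREs (vertical axis) with a match to each motif in the central 300 bases, for the CREs called higher, called lower and all tested. Right, the same share for the STAT6-type and AP-1 motifs by the size of the difference, where the STAT6-type share goes from 4.49% in the CREs called lower to 59.2% in those with a gain above 3 and AP-1 stays between 19.1% and 26.5%.

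Was the response seen in libraries that share none with the DMSO comparison? For 56 CKIs there were UT and IL-4 2 h libraries of cells given the same compound, 70 and 58 libraries in all, mostly 1 per compound and state, so their differences were given no test. Over the 47018 CREs the median difference across CKIs correlated with the DMSO difference at r = 0.891, given as a description, since CREs are not independent and share base composition and depth. Of the 4087 CREs that rose in DMSO, 4065 (99.5%) had a CKI median above 0, and 1174 were higher in all 56. Of the 4073 that fell, 4053 (99.5%) had a median below 0, and 709 were lower in all 56. Over all 47018 tested, 49.4% had a median above 0 and 50.0% below, 1305 were higher in all 56 and 1160 lower in all 56. The Socs1 element in the Clec16a intron, the Pdcd1lg2 promoter and the Arg1 promoter were higher with IL-4 under 56 of 56 CKIs, and the Prkcb element and the Clec4d promoter were lower under 56 of 56.

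The sizes were smaller than in DMSO cells. The median over CKIs was 1.05 in the CREs that rose and -0.87 in those that fell, against 1.63 and -1.29 in the DMSO libraries, which had been used to choose the sets. The gap between the medians of both sets ranged from 1.37 with Afatinib to 2.49 with Refametinib, with a median of 1.96, and was 2.92 in DMSO. The CKI libraries also had less contrast than the DMSO libraries. The median value of the 10% of CREs with the highest mean was 98.8 to 132 times that of the 10% with the lowest in the 4 DMSO libraries and 6.35 to 81.6 times in the CKI libraries, and the part of this in the smaller differences was not tested. Among the 6 inhibitors of JAK kinases, which act directly below the receptor, the gap was 1.39 with Filgotinib, 1.68 with BMS911543, 1.95 with Momelotinib, 2.25 with Ruxolitinib, 2.27 with Pacritinib and 2.37 with Tofacitinib. Each was given at its own concentration, and with 1 IL-4 library per compound these values have no replicate error. Counted from the smallest gap of the 56 CKIs, these 6 ranked 3, 12, 27, 45, 49 and 54, in the same order. In that order the contrast of their IL-4 2 h libraries was 20.4, 17.3, 35.5, 44.6, 23.7 and 35.9. Its part in these gaps was not tested. Smaller gaps than that of Filgotinib were found with Afatinib (1.37) and Talmapimod (1.38), which are not among these 6.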

How the data were processed

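BMDM chromatin was immunoprecipitated with an H3K27ac antibody and sequenced as single reads, which the authors trimmed to 51 bases and mapped to mm10. The deposited table holds normalized read counts, that is, scores scaled by the authors on invariant peaks and rounded to whole numbers, for CREs centered on ATAC-seq summits. Its CREs vary in width and values were not adjusted for it, so comparisons of level between different CREs may partly reflect width. The depth behind a value was estimated from the spacing of the values. Genes, UTRs and features came from the mm10 (GRCm38) annotation, and sequences from the matching genome.

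Values were analysed as log2(value + 5) with limma 3.58.1 in R 4.3.3, with a mean trend, over the 10 DMSO UT and IL-4 libraries (18 for the LPS comparison), at CREs with a mean of at least 10. No batch is given in the labels. Alternatives were pseudocounts of 1 and 20, other filters, libraries, scalings and thresholds, a replicate block and leaving out each library. How often a change of a given size would pass the threshold was not tested. Named CREs were the 12 largest rises and falls, the 8 largest at promoters, the 5 largest of each other comparison in each direction, the 8 genes with most calls, and the promoter and most changed CRE of each of 272 genes in 13 lists. The members and lists were chosen with earlier results of these data known. Repeats are 51-base stretches found elsewhere in the mm10 chromosomes and unplaced contigs. Figures were drawn with matplotlib 3.10.9.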

Additional observations from a re-analysis of the deposited data

How the results depend on the processing

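The count of 8160 CREs for IL-4 2 h against UT was 4925 with a pseudocount of 20, of which 2816 were higher and 2109 lower, and 17432 (8039 higher, 9393 lower) with an adjusted p under 0.05 and a log2 difference over 0.5. Leaving out 1 library in turn gave 6997 to 7780, with 3593 to 4052 higher and 2945 to 4140 lower. For IL-4 2 h against IL-4 1 h, 139 became 50 with a pseudocount of 20, 39 in a fit of 4 libraries, 1 with no mean trend and 1164 with the looser threshold, and 39 to 196 without 1 library. Quantile normalization put 15 of these CREs higher and 86 lower. For IL-4 4 h against IL-4 2 h, 450 became 128, 200, 0 and 3208 under the same settings, 293 in the fit of 18 libraries and 269 to 375 without 1 library. For IL-4 2 h against LPS 2 h the count ranged from 15737 to 30075.

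No effect shared by replicate number was seen, since the replicate differences of groups correlated at -0.04 to 0.08. These correlations cannot show whether the replicates were paired by mouse or culture. With a replicate block the fit of IL-4 2 h against UT called 8164 CREs. The STAT6-type share of the CREs that rose was 53.2% in the central 1000 bases. Of the named CREs, 39 lost the call with a pseudocount of 20.

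With 2 libraries per group a difference rests on 4 values, and weak CREs have large errors. The table keeps rounded scaled values, so counting error could not be modeled. Nearest genes need not be targets, and no transcript was measured here.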

Other observations

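Called CREs were often neighbors along the chromosome. Counting only tested CREs in genome order, the 4087 that rose formed 2415 runs of consecutive elements, of which 102 held at least 5, and the 4073 that fell formed 2569 runs, of which 88 held at least 5. The longest run of gains held 27 CREs at chr16:10564863-10858957 around Socs1, Clec16a, Gm11172 and Rmi2, with a median log2 difference of 3.60. The values of its CREs summed to 724 and 696 in UT and to 8928 and 8829 after IL-4. Another run of 27 lay between Myc and Gsdmc at chr15:62447759-63653470, with sums of 786 and 796 in UT and of 4379 and 5220 after IL-4. The run that holds Arg1 and Akap7 had 13 CREs (763 and 812, then 3476 and 3826). The longest run of losses held 19 CREs at Pid1 and Dner (7006 and 6818, then 2152 and 2325). A run of 12 covered Ifitm1, Ifitm2, Ifitm3 and Ifitm6 (3000 and 2914, then 813 and 812), and a run of 11 covered Pilra, Pilrb1 and Pilrb2 (2578 and 2353, then 653 and 687). Runs were built from the calls themselves, so the direction of these sums was set by the choice of CREs.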
